A study of Caligus rogercresseyi with 6 samples.

Results

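The copepodid of the sea louse Caligus rogercresseyi, a parasitic copepod of farmed salmon, was compared with the egg by RNA-seq, with 1 library of pooled whole animals for each stage. The comparison covered the contigs (assembled transcript sequences) that reached 50 counts in copepodid, in egg or in both, 28633 of the 44089 contigs in the tables. Of these, 6260 had 0 counts in each of the egg, chalimus, adult male and adult female libraries and are called copepodid-alone contigs. The other 22373 were also counted in at least 1 of those libraries. The series holds 6 samples in 6 groups of 1: egg, copepodid, chalimus, adult female, adult male and adults of unstated sex. All are labelled wild type and whole animal, and the labels describe each as RNA pooled from farmed Atlantic salmon, without the number of animals, the age of the embryos or the time since the copepodid moult.

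In sea lice, eggs develop in strings carried by the female and hatch into free-swimming nauplii, which moult to the copepodid. The copepodid is the infective larva. It swims without feeding, lives on yolk reserves and searches for a host, on which it attaches and moults to the chalimus. No nauplius was among the samples, so the comparison spans embryonic development, hatching and the nauplius moults together. The deposited tables identify contigs by number and pair none with a gene, so no gene function, tissue marker or sequence is given here, and the stage labels could not be checked against marker genes.

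Totals were 78380827 counts for copepodid and 120674263 for egg, and between 116318842 and 149426248 for chalimus, adult female and adult male. The adult table of unstated sex has the total of the female and male tables exactly, with a difference of 0 counts, so it repeats their reads. It entered the scaling factors computed over the 6 tables and served otherwise only as a check on how reads were assigned. A count of 0 allows up to 3 counts, which is 0.0383 CPM (counts scaled to the library total) in copepodid and 0.0249 CPM in egg. Of the total behind the copepodid FPKM values, 1.08% is not in its table, against 0.149% for egg, so a copepodid count of 0 refers to that table only. With 1 library per stage no difference has a replicate check and no test was possible. A contig is called higher or lower where it differed at least 4-fold with at least 50 counts in the higher library. Intervals and limits cover counting error only.

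The copepodid library held more contigs far above the egg level than far below it. That balance turned once the copepodid-alone contigs, all of them on the higher side, were set apart. With trimmed mean of M-values (TMM) scaling, 9548 contigs (33.3%) were higher in copepodid and 5633 (19.7%) were lower. TMM over 5 libraries, without the adult table of unstated sex, also gave 9548 and 5633. With total-count scaling the numbers were 8410 (29.4%) and 8374 (29.2%). Among contigs of 500 nt or more the balance with TMM turned, with 3386 higher and 5207 lower. The share of called contigs that were higher was therefore 62.9% under TMM and 50.1% under total-count scaling, and DESeq2 size factors gave 64.7%. In RNA from whole animals, fewer cells of a type and less RNA per cell cannot be told apart.

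Among the 22373 contigs that another library also counted, 3288 (14.7%) were higher and 5633 (25.2%) lower in copepodid with TMM. With total counts 2150 (9.61%) were higher and 8374 (37.4%) lower. The lower side was the larger one under both scalings and with DESeq2 size factors, where 39.8% of the called contigs were higher, against 36.9% with TMM and 20.4% with total counts. The split itself bears on that order. It can remove higher contigs only, because egg is among the libraries that must be at 0, and the 2747 lower contigs with 0 copepodid counts all stay. With 1 or more counts in both copepodid and egg, TMM gave 3113 higher and 2886 lower contigs. With total counts the lower side stayed the larger one among such contigs. There the 8374 lower contigs include the same 2747, and the higher ones number at most 2150. Over the 22373 contigs the median log2 ratio was -0.37 under TMM, -1.35 under total counts and -0.21 under DESeq2 scaling, and the TMM quartiles lay at -2.02 and 0.94.

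For contigs well counted in both libraries the gap between the scalings is close to a constant. TMM places their copepodid level 1.96-fold higher relative to egg than total counts do, a shift of 0.97 in log2, and DESeq2 size factors place it 2.20-fold higher. For contigs at 0 counts in 1 library the gap in the log2 ratio is smaller and depends on the prior count. The 6260 copepodid-alone contigs and the 2747 lower contigs with 0 copepodid counts pass the rule under each of the 3 scalings by their definition, as 50 or more counts against 0. Of the 3288 higher contigs counted elsewhere, 2150 (65.4%) were called under all 3, and of the 2886 lower contigs with copepodid counts, 2603 (90.2%) were. Near the count minimum, 395 contigs had 50 to 54 counts in the higher library, and 437 had from 45 to just under 50 and were left out.

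**Figure D1:**
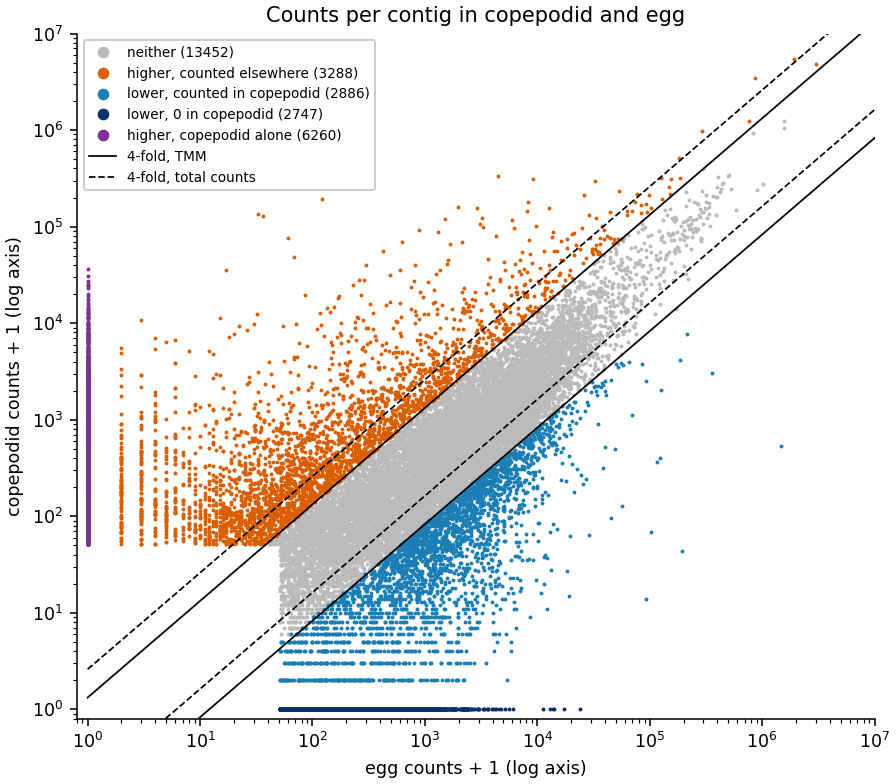
Counts per contig in egg (x axis) and copepodid (y axis), each plus 1 on a log axis, for the 28633 contigs compared; solid lines mark 4-fold with TMM and dashed lines 4-fold with total counts. The 6260 copepodid-alone contigs (purple) lie on the left edge at 0 egg counts and the 2747 lower contigs with 0 copepodid counts (dark blue) on the bottom edge.

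The copepodid-alone contigs were many, short and individually modest. Their median length was 304.5 nt, 87.1% were under 500 nt, and together they held 4.44% of the copepodid counts. No single contig carried that share, since the 10 with the most counts held 0.316% of the library. Their counts ran from 68 at the 5th percentile through a median of 228 to 1739 at the 95th percentile. Per length, their median level was 9.37 FPKM (counts scaled to contig length and library total), and 108 of the 6260 reached 100 FPKM.

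A minimum of 50 counts favours high FPKM in short contigs, so levels were also set side by side below 500 nt. There the 5453 copepodid-alone contigs had a median of 8.77 FPKM and a 95th percentile of 35.0 FPKM. The 1134 contigs of that length that reached 50 copepodid counts and were counted elsewhere had a median of 6.98 FPKM and a 95th percentile of 196 FPKM. The medians lay close together, whereas the upper end belonged to the contigs shared with other libraries. Lengths were not matched within that range, so the minimum of 50 counts still bears on the medians. Under 300 nt lay 3012 of the 5453, against at most 174 of the 1134.

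The first of this class by FPKM was GAZX01017135 (397 nt), with 1149 FPKM (36153 counts) in copepodid and 0 counts in the other 4 stage and sex libraries. It was at least 18554-fold higher than in egg, the lowest of the bounds under the 3 scalings. The next contigs were far less abundant per length. The second (231 nt) had 439 FPKM and 8035 counts, the third (893 nt) had 437 FPKM and 30926 counts, the fourth (470 nt) 415 FPKM and 15463 counts, and the fifth (593 nt) 409 FPKM and 19200 counts. All 5 were at 0 counts in the adult table of unstated sex too. Over the whole class, 5 contigs had counts in that table, at most 2 each. The bound on the fold against egg had a median of 230 with TMM and 117 with total counts, and its lowest value was 25.7, with total counts.

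Being counted in a single library was far more frequent in copepodid than elsewhere. With at least 50 counts, 6 contigs were counted in egg alone, 28 in chalimus alone, 2 in adult female alone and 0 in adult male alone. At any count the numbers were 142 for egg, 1400 for chalimus, 75 for adult female and 166 for adult male, against 7055 for copepodid. The step from 0 to a few counts elsewhere was abrupt. Of the 22927 contigs with 50 or more copepodid counts, 6260 had 0 in all other stage and sex libraries, whereas 102 had a highest value of 1 elsewhere, 178 of 2 to 5, and 86 of 6 to 10. Median length grew with the counts elsewhere, from 359 nt at 1 count to 524.5 nt at 6 to 10 counts and 1758 nt above 1000.

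**Figure D2:**
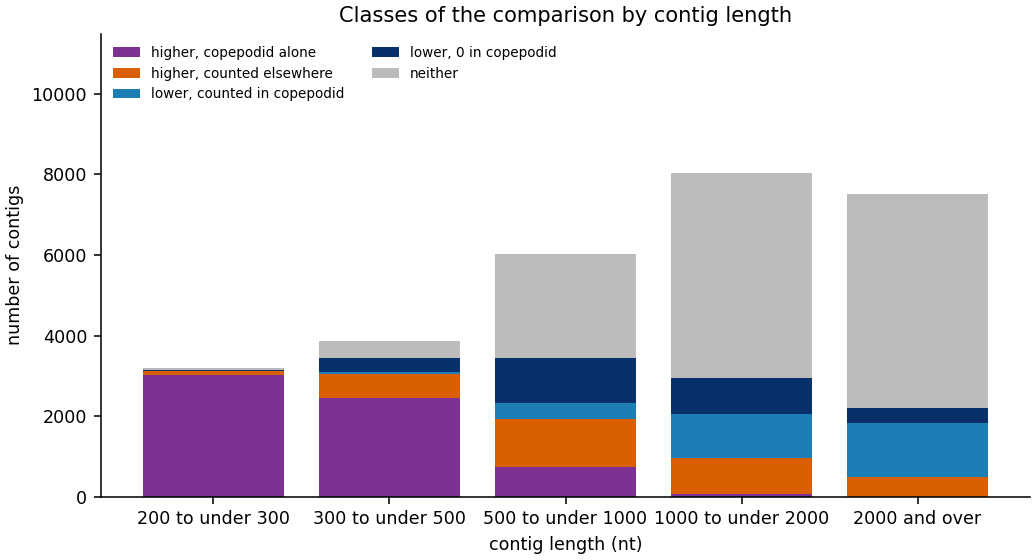
Number of contigs (y axis) by contig length in nt (x axis), stacked by class, for the 28633 contigs compared with TMM scaling. Copepodid-alone contigs make up 94.5% of the contigs of 200 to under 300 nt and 0.0799% of those of 2000 nt and over.

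Length set the copepodid-alone contigs apart from the other classes. The higher contigs counted elsewhere and the lower contigs with 0 copepodid counts were of similar length, with medians of 852 nt and 930 nt. From 200 to under 300 nt, 3012 of 3186 contigs (94.5%) were copepodid-alone, from 300 to under 500 nt 63.3%, from 500 to under 1000 nt 12.2%, and from 2000 nt on 6 of 7506 (0.0799%). Among contigs counted elsewhere the median log2 ratio was also lower at greater length, with TMM 1.13 at 300 to under 500 nt, 0.00 at 500 to under 1000 nt, -0.43 at 1000 to under 2000 nt and -0.63 at 2000 nt and over. With total counts the corresponding medians were 0.15, -0.97, -1.40 and -1.61. Whether length itself, or the depth and assembly that go with it, has a part in the calls was not tested.

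Among contigs counted elsewhere, the ratio also differed with abundance. Taking the mean CPM of the 2 libraries, contigs under 1 CPM and counted elsewhere had a median log2 ratio of -2.33 with TMM, those of 1 to 10 CPM -0.35, those of 100 to 1000 CPM 0.45 and those of 1000 CPM and over 0.77. With total counts the last 2 were -0.53 and -0.20. That order did not hold once the copepodid-alone contigs were included, most of which lay under 10 CPM. Over all contigs the median under 1 CPM was 0.80 with TMM, with 2873 higher and 2281 lower, and at 1 to 10 CPM it was 0.85, with 5408 higher and 2338 lower. At 10 to 100 CPM it was -0.22. At the minimum of 50 counts a contig has 0.414 CPM in egg and 0.638 CPM in copepodid, so the lowest band takes in contigs at a lower level from egg than from copepodid. Of the 141 contigs at 1000 CPM and over, 33 (23.4%) were higher in copepodid with TMM, 2 (1.42%) were lower, and none was copepodid-alone.

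**Figure D3:**
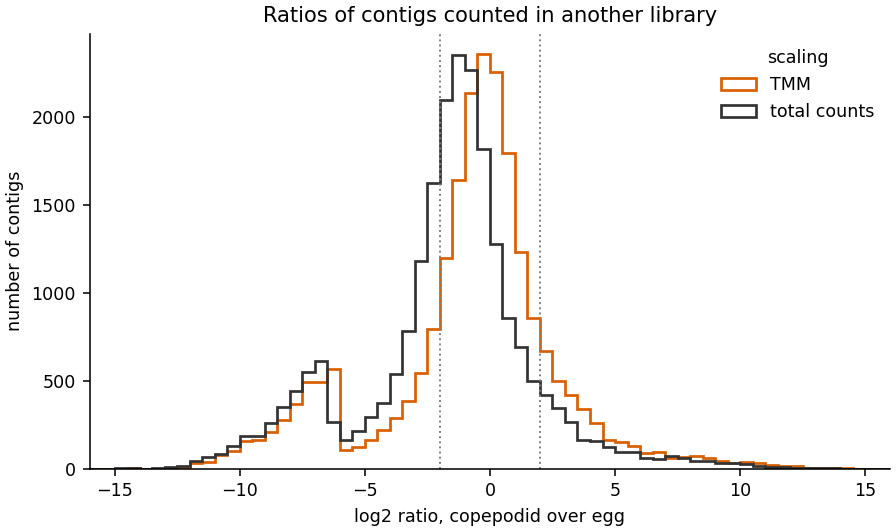
Distribution of the log2 ratio of copepodid over egg (x axis) over the 22373 contigs counted in another library, as number of contigs per bin (y axis), with TMM (orange) and total-count (black) scaling; dotted lines mark 4-fold. Total counts place the main peak 0.97 lower, and the separate peak on the left is at the position of the contigs with 0 copepodid counts.

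The higher contigs that other libraries also counted held far more of the copepodid library than the copepodid-alone contigs did. In copepodid these 3288 contigs, as called with TMM, held 43.4% of all counts, and in egg 10.2%. Total counts called 2150 of them. Those it did not call include the contigs of rank 2 and 4 by FPKM in copepodid, so the shares depend on the scaling. They were not confined to the copepodid, since they also held 30.3% of the chalimus, 33.0% of the adult male and 16.1% of the adult female counts. The 10 with the most copepodid counts took 22.7% of the copepodid library and 6.25% of the egg library. Without those 10 the class held 20.7% of the copepodid library, against 3.999% of the egg library. That these shares are larger in copepodid than in egg follows from the rule that chose the class. The Wilson 95% interval of any such share reaches at most 0.0111 percentage points from it.

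In size, 2121 of the 3288 differed at least 8-fold with TMM and 661 at least 64-fold, against 1387 and 487 with total counts. For the 3113 with at least 1 egg count the median difference was 11.04-fold with TMM and 5.64-fold with total counts. The other 175 had 0 egg counts and a median bound of at least 141-fold with total counts. Of these 175, 126 had counts in chalimus, 64 in females and 54 in males. The median level of the class was 5.03 CPM in copepodid, 1.58 CPM in chalimus, 0.613 CPM in egg, 0.603 CPM in males and 0.341 CPM in females. Copepodid was the library of highest level for 2387 of the 3288 with TMM (72.6%) and 2130 with total counts, adult male for 500 and 579, and chalimus for 305 and 450.

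The first and second of these contigs by FPKM were also abundant in the other stage and sex libraries. GAZX01041365 (2576 nt) had 26497 FPKM in copepodid, 6173 FPKM in egg, 4351 FPKM in chalimus, 3056 FPKM in adult female and 4659 FPKM in adult male. It was 8.50-fold higher than in egg with TMM (95% interval 8.49 to 8.52) and 4.33-fold higher with total counts. The second contig (4238 nt) had 10369 FPKM in copepodid, 1698 FPKM in egg and between 634 and 1071 FPKM in chalimus, adult female and adult male. Both stood highest in copepodid by a wide margin and lowest in adult female.

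The next 3 contigs were far lower in adult female than in adult male. The third (1423 nt) had 8696 FPKM in copepodid, 1713 FPKM in egg, 4245 FPKM in chalimus, 138 FPKM in adult female and 7149 FPKM in adult male. The fifth (458 nt) had the same order, at 5972, 1402, 4302, 195 and 4822 FPKM. The fourth (332 nt) showed the widest difference from egg among the 5. It had 7391 FPKM in copepodid (194416 counts), 3.02 FPKM in egg (121 counts), 1631 FPKM in chalimus, 2.12 FPKM in adult female and 239 FPKM in adult male. It was 4855-fold higher than in egg with TMM (interval 4063 to 5851) and 2474-fold with total counts.

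**Figure D4:**
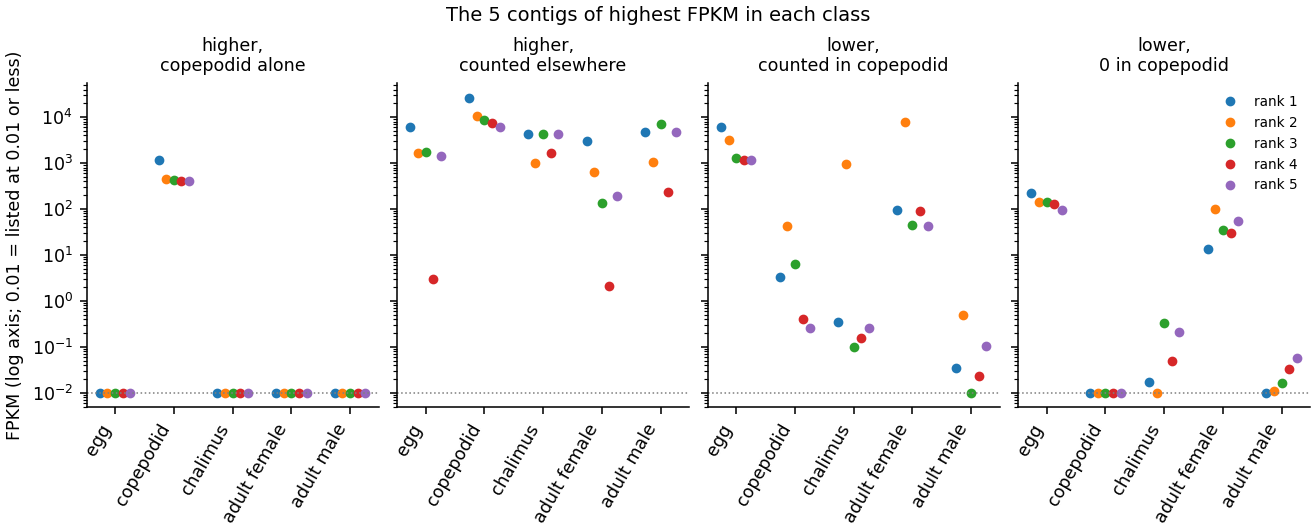
FPKM (y axis, log) of the 5 contigs of highest FPKM in each class across the 5 stage and sex libraries (x axis); each point is 1 library's value, and values of 0.01 or less are drawn at 0.01. The lower contigs sit high in egg, next in adult female and near the bottom in adult male, except the second of the third panel, at 7683 FPKM in adult female.

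The comparison of adult female with adult male was a readout that the calls between copepodid and egg did not use, apart from the shared scaling and the separation of the copepodid-alone contigs. Over all 21543 contigs with 50 or more counts in either sex, 16.8% passed the 4-fold rule toward female and 16.9% toward male. Among the 2015 such contigs of the higher class counted elsewhere, 190 (9.43%) were higher in female and 840 (41.7%) in male, with a median log2 ratio of female over male of -1.53. Among the 2722 of the lower class with copepodid counts the order was the opposite, with 712 (26.2%) higher in female, 229 (8.41%) in male and a median of 0.69. The 1902 of the lower class with 0 copepodid counts had 455 (23.9%) and 293 (15.4%), with a median of -0.03. The 12629 contigs called neither way had 13.7% and 11.1%, with a median of 0.25. Each sex was 1 library, so these shares describe those libraries.

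With TMM the lower contigs formed classes of nearly equal number that differed in level, length and course. In 2886 contigs copepodid had at least 1 count, and in 2747 it had 0. With total counts 8374 contigs were lower, and the same 2747 of them had 0, so the class with counts was the larger. The values below are for the classes as called with TMM. The 2886 with counts were long, with a median of 1910 nt, and held 9.49% of the egg and 0.475% of the copepodid library. In chalimus they held 3.901%, in females 7.89% and in males 3.45%. Their median level was 10.4 CPM in egg and 0.459 CPM in copepodid and stood at 6.04 CPM in chalimus, 8.13 CPM in females and 3.71 CPM in males. Their median difference from egg was 8.63-fold with TMM and 16.8-fold with total counts, and 2418 of them had 50 or more counts in each of chalimus, adult female and adult male.

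The 2747 contigs with 0 copepodid counts had a median of 930 nt and lower levels, at a median of 1.13 CPM in egg, 0.843 CPM in chalimus, 0.495 CPM in females and 0.499 CPM in males. They held 0.794% of the egg, 1.02% of the chalimus, 2.39% of the adult female and 1.95% of the adult male counts. Of them 1200 had 50 or more counts in each of those later libraries, and 668 had under 50 in all of them. The bound on their difference from egg had a median of at least 15.0-fold with TMM and 29.4-fold with total counts.

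For contigs well counted in egg, 0 counts in copepodid was more frequent than counts of 1 to 5. Of the 13081 contigs with 500 or more egg counts, 464 (3.55%) had 0 copepodid counts, whereas 36 had 1 and 106 had 2 to 5. The same 13081 contigs were at 0 in 16 cases in chalimus, 1 in adult female and 41 in adult male. In the opposite direction, of the 9550 contigs with 500 or more copepodid counts, 1483 (15.5%) had 0 egg counts, 15 had 1 and 46 had 2 to 5. Leaving out the copepodid-alone contigs, which have 0 egg counts by definition, 45 of 8112 (0.555%) had 0. Contigs at 0 in copepodid with 100 or more counts in each of the other stage and sex libraries numbered 687. The corresponding number was 3 for egg, 0 for chalimus, 1 for adult female and 4 for adult male. The copepodid library was the shallower one, and the counts left out of its table cannot be assigned to contigs. Whether either has a part in these zeros was not tested.

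**Figure D5:**
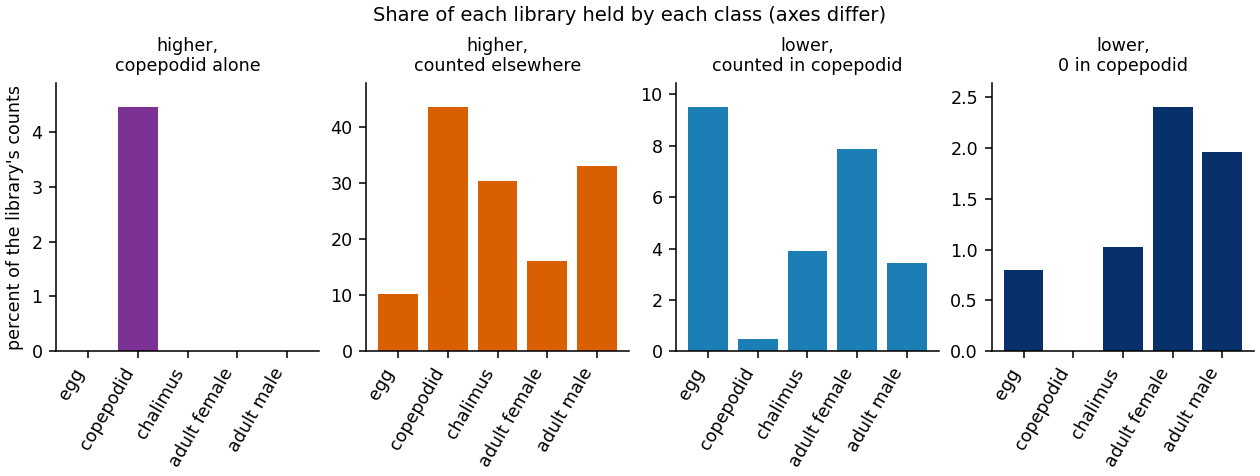
Percent of each library's counts (y axis) held by the 4 classes called with TMM in the 5 stage and sex libraries (x axis). The y axis has a different range in each panel. The higher class counted elsewhere takes 43.4% of copepodid and 33.0% of adult male counts, and the lower class with copepodid counts takes 9.49% of egg and 7.89% of adult female counts.

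Of the lower contigs called under all 3 scalings, those of highest egg level were well counted in adult female and hardly at all in males. GAZX01041136 (2025 nt) had 6062 FPKM in egg (1483490 counts), rank 5 by FPKM in that library. It had 3.34 FPKM in copepodid (536 counts), 0.339 FPKM in chalimus, 94.04 FPKM in adult female and 0.034 FPKM in adult male (9 counts). Its copepodid level was 916-fold lower with TMM (interval 842 to 999) and 1798-fold lower with total counts.

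The contigs of rank 3 (785 nt), 4 (1356 nt) and 5 (650 nt) followed the same course. They had 1300, 1181 and 1178 FPKM in egg and 6.42, 0.400 and 0.252 FPKM in copepodid, then 44.1, 88.5 and 43.4 FPKM in adult female and at most 0.251 FPKM in chalimus and adult male. The second (917 nt) differed, with 3202 FPKM in egg, 41.8 FPKM in copepodid, 935 FPKM in chalimus, 7683 FPKM in adult female and 0.502 FPKM in adult male. It was therefore highest in adult female, and its difference between egg and copepodid was 38.7-fold with TMM and 76.0-fold with total counts.

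Among the lower contigs with 0 copepodid counts, GAZX01020778 (516 nt) had the highest egg level, at 222 FPKM (13861 counts). It had 1 count in chalimus, 13.7 FPKM in adult female (1056 counts) and 0 counts in adult male, and its egg level was at least 1366-fold above that of copepodid. The contigs of rank 2 to 5 had 145, 145, 131 and 94.96 FPKM in egg and 97.8, 34.6, 30.5 and 55.4 FPKM in adult female. In chalimus they had 0, 38, 4 and 30 counts, and in adult male 2, 2, 3 and 9 counts. All 5 were thus counted in egg and adult female, with at most 38 counts in any other library.

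Many contigs lay near the same level in both libraries, but which ones depended on the scaling. With TMM 5319 contigs were within 1.5-fold, holding 34.8% of the egg and 18.5% of the copepodid counts, and with total counts 3581 were. Total counts and DESeq2 size factors lie 2.20-fold apart, and 123 contigs were within 1.5-fold under all 3 scalings. Of the 20 contigs of highest FPKM in egg, 16 were called neither way with TMM, 3 were higher and 1 was lower in copepodid. Of the 20 of highest FPKM in copepodid, 8 were called neither way and 12 were higher with TMM, all 12 being counted elsewhere. In both lists stood 8 contigs. With total counts the higher contigs of rank 2, 4, 9 and 12 in copepodid were under 4-fold. So were the higher contigs of rank 3 and 13 in egg.

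Contigs with consecutive identifiers often shared a class, also outside the called classes. For contigs called neither way, 30.5% of all contigs, the next identifier was in the same class for 54.6%. The next identifier was in the same class for 44.0% of the copepodid-alone contigs, which made up 14.2% of all contigs, for 22.4% of the higher contigs counted elsewhere (7.46% of all), for 18.9% of the lower contigs with copepodid counts (6.55%) and for 18.0% of those without (6.23%). Identifiers also track length, with a median of 366 nt in the first block of 10000 identifiers and 1809 nt in the fourth such block, where 3081 and 209 copepodid-alone contigs lay. Of 3015 consecutive pairs that were both called and counted elsewhere, 738 were both higher, 1461 both lower and 816 opposed. Whether consecutive contigs are parts or variants of 1 transcript that share reads was not tested.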

How the data were processed

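RNA was measured in 6 samples, 1 pooled library per group. Each table lists a whole-number count and an FPKM per contig. The authors deposited the counts without normalisation, to judge from the headers and from totals that differ between files. The authors' FPKM, also deposited, divide the counts by contig length and by a library total. Neither the aligner, the counting tool, the assembly nor the treatment of reads that match several contigs is given in the sources used here. Contig lengths were recovered from counts and FPKM (whole within 0.05 nt for 100% of contigs above 300 FPKM). TMM factors over the 6 files came from edgeR 4.0.16 in R 4.3.3, and size factors from DESeq2 1.42.0. Log2 ratios used 0.5 prior counts scaled to library size. Ratio intervals are 95% exact (Clopper-Pearson). A fold against 0 counts is a bound computed with 3 counts in that library. With 1 library per group no p-value was computed. The computation was tested on simulated data. Totals per library, and so the depth, are given with the results. For each of the 4 classes the 5 contigs of highest FPKM in the higher library, among those called under all 3 scalings, were described, and the first was named. The members, classes and rules were chosen with earlier results of these data known. Gene groups listed by name could not be applied to any contig.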

Additional observations from a re-analysis of the deposited data

How the results depend on the processing

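No paired analysis was possible because each group has 1 library, and no library could be left out. The numbers of higher and lower contigs stayed within 1.5 times of 9548 and 5633 under total counts, DESeq2 size factors, upper-quartile factors, 3 other TMM settings, a minimum of 10 counts, a prior of 5 counts and an 8-fold rule. The lower contigs came close to that limit, at 8374 with total counts and 8373 with a minimum of 10 counts. With total counts the higher contigs numbered 8410, so the sides were nearly even. The higher contigs counted elsewhere (3288) ranged from 2892 to 3540 under the other scalings but fell to 2150 with total counts. A minimum of 200 counts gave 5638 higher, 3555 lower, 2163 higher and counted elsewhere, and 3475 copepodid-alone contigs. A minimum of 1 count gave 9816 lower contigs. A 2-fold rule gave 8467 lower and 5325 higher contigs counted elsewhere, and an 8-fold rule gave 2121 of the latter. Contigs of 500 nt or more left 3386 higher contigs and 807 copepodid-alone, so the balance turned to the 5207 lower ones. Contigs with at least 100 female plus male counts, and a pooled adult count within 1% of them, were an alternative chosen after seeing the data. That minimum drops every copepodid-alone contig, and it left 1150 higher and 2316 lower of 11673 contigs compared. Their higher share was 33.2%, against 36.9% for all contigs counted elsewhere. The contigs within 1.5-fold under all scalings (123) numbered 0 in a narrower window, 3656 within 2-fold and 5319 with TMM only. The 20 described contigs were chosen to pass under 3 scalings, so their passing under other scalings is no sign of stability. The share of male-biased contigs in the higher class counted elsewhere was 43.7% with total counts, 43.3% with DESeq2 size factors and 40.9% at 500 nt or more. Depth limits the contigs with 0 copepodid counts, whose lowest bound against egg was 4.93-fold, with DESeq2 size factors, close to the rule itself.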
